A study of Homo sapiens with 6 samples.

Results

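A set of 10 genes whose products can hold T cells and natural killer cells in check was followed across 3 cultured lines of human gastric tumour cells. They were the 10 rows of the count table named CD274, HHLA2, PVR, PVRL2, PVRL3, LGALS9, TGFB1, TGFB2, NT5E and ARG2, out of 29744 symbols. All 10 passed the filter on low counts, as did 14958 symbols in all, but CD274 passed it only through the HER2R libraries, where it was highest, so nothing is read from its test or from its part in the counts and medians below. MKN45, an established gastric cancer line, is labelled sensitive. HER2R, titled MKN-HER2, is labelled resistant to a T cell bispecific antibody (TCB) against HER2, the receptor tyrosine kinase encoded by ERBB2. CEAR, titled MKN-CEAR, is labelled resistant to a TCB against CEACAM5, an epithelial surface glycoprotein. The titles do not name MKN45 as the parent of either. A TCB bridges a surface antigen of the tumour cell and the T cell receptor complex. The source name of HER2R in the labels is MKN45-HER2, and whether that is a modified line is not stated. No treatment is listed for any library, so none of the 3 lines is labelled as exposed to antibody or T cells when RNA was taken. Each resistance is represented by 1 line, with 2 libraries, as has MKN45.

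A tumour cell can restrain T cells in several ways. Ligands of the B7 family and the nectin family bind inhibitory receptors on lymphocytes, and PD-L1, the product of CD274, is the best known of them in gastric cancer, where interferon gamma from T cells induces it. Secreted transforming growth factor beta (TGF-beta) is made in a latent form that must be released from its carrier proteins before it can signal. Enzymes act through small molecules, with extracellular adenosine made by CD73, the product of NT5E, and local arginine used up by arginases.

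Library totals ran from 39657353 to 57964246 counts, and 1 count was worth 0.0177 to 0.0255 CPM, the count scaled by library depth, in which levels are given below. As a check of the labels, CEACAM5 stood at 1724 ± 1014 CPM in MKN45, 1663 ± 886 in HER2R and 9.10 ± 9.57 in CEAR (mean ± SD, n = 2 in each line). ERBB2, the gene of HER2, stood at 115 ± 15.7, 83.5 ± 6.67 and 92.5 ± 23.9 CPM. The 9 epithelial markers, 8 of them tested, summed to 11059 to 13421 CPM in MKN45, 12273 to 16013 in HER2R and 8613 to 10444 in CEAR, with EPCAM called higher in HER2R than in CEAR (log2 fold change 0.79, edgeR adjusted p = 0.0327), a call lost without any HER2R or CEAR library (0.109 to 0.168). None of 14 markers of T, NK and B cells reached 1 CPM in any library. CD3D, CD2, CD8B, NKG7, GZMB and MS4A1 were at 0 counts throughout, where a floor of 3 counts is 0.0531 to 0.0765 CPM, and the list summed to 0.230 to 0.500 CPM in MKN45, 0.153 to 0.459 in HER2R and 0.241 to 0.247 in CEAR. Of 8 myeloid markers, CSF1R, FCGR3A and CD163 were at 0 counts in every library. The summed level of the 8 myeloid markers, nearly all of it LYZ, was 910 to 1144 CPM in MKN45, 365 to 403 in HER2R and 830 to 1197 in CEAR, and LYZ was called lower in HER2R than in MKN45 (-1.42, edgeR adjusted p = 0.0192) and CEAR (-1.41, 0.0174). The first LYZ call was lost without MKN45 library 2 (0.0714), HER2R library 1 (0.136) or HER2R library 2 (0.118), and the second without HER2R library 1 (0.113), HER2R library 2 (0.106) or CEAR library 2 (0.0743). Fibroblast markers, of which 5 of 9 were at 0 counts and 8 of 9 under 1 CPM in every library, summed to 0.978 to 1.88 CPM in MKN45, 3.55 to 7.67 in HER2R and 1.15 to 1.81 in CEAR. The part of these other markers in the differences below was not tested. The 8 listed genes for receptors of the B7, nectin and galectin ligands stayed under 1 CPM in every library, PDCD1, TIGIT and KIR3DL3 at 0 counts. Receptors of TGF-beta and adenosine are not among these 8 and are counted in other lists below.

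Differences were tested with edgeR's quasi-likelihood model over all 6 libraries, and a gene was called at a Benjamini-Hochberg adjusted p under 0.05 over all 14958 genes. Separate cultures for the 2 libraries of a line are not stated, so a p-value here reflects no more than the spread between libraries, part or all of which may be technical. In HER2R against MKN45, 2 of the 10 genes were called higher (NT5E and ARG2) and 1 lower (HHLA2), where 4.89% of all tested genes were called higher and 4.85% lower. In CEAR against MKN45, 1 gene was called higher (PVRL3) and 2 lower (TGFB2 and HHLA2), against 2.57% and 3.62% of all genes. In HER2R against CEAR, 3 genes were called higher (NT5E, ARG2 and TGFB2) and 1 lower (PVRL3), against 7.32% and 6.75%. The 3 comparisons share libraries, so each is given for itself. The median log2 fold change of the 10 genes was 0.89, -0.05 and 0.90 in these comparisons, where that of all tested genes was -0.02, -0.0002 and 0.

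Library numbers 1 and 2 recur in every line and deviated together, so a fit with the number as a block was also made. It called 6 of the 10 genes (CD274 among them) higher and 1 lower in HER2R against MKN45, where it called 16.2% and 17.5% of all genes. For CEAR against MKN45 it called 2 higher and 3 lower, against 12.0% and 13.8%. In HER2R against CEAR it called 6 (again with CD274) higher and 2 lower, against 19.7% and 18.6%. Both HER2R libraries lay above both MKN45 libraries for 8 of the 10 genes (27.8% of all tested genes) and below them for 1 (29.3%). The CEAR libraries lay above both MKN45 libraries for 2 genes (25.0% of all) and below for 3 (25.6%). HER2R lay above CEAR in this way for 6 genes (31.0% of all) and below for 2 (30.3%).

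**Figure D1:**
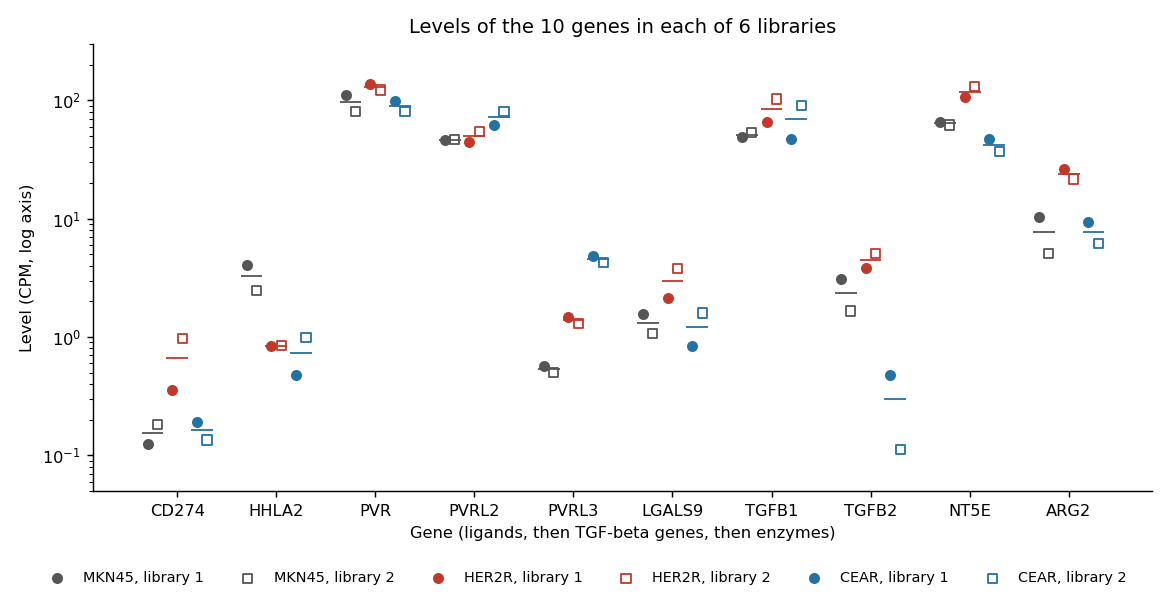
Level of each of the 10 genes in each library, in CPM on a log axis, with filled circles for library 1, open squares for library 2 and a short line for the mean of each line's 2 libraries. CPM is not scaled by gene length, so only the lines within a gene can be compared: both HER2R points lie above both MKN45 points for 8 genes (27.8% of all tested genes), and TGFB2 spans from 0.112 CPM in a CEAR library to 5.05 CPM in a HER2R library.

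**Figure D2:**
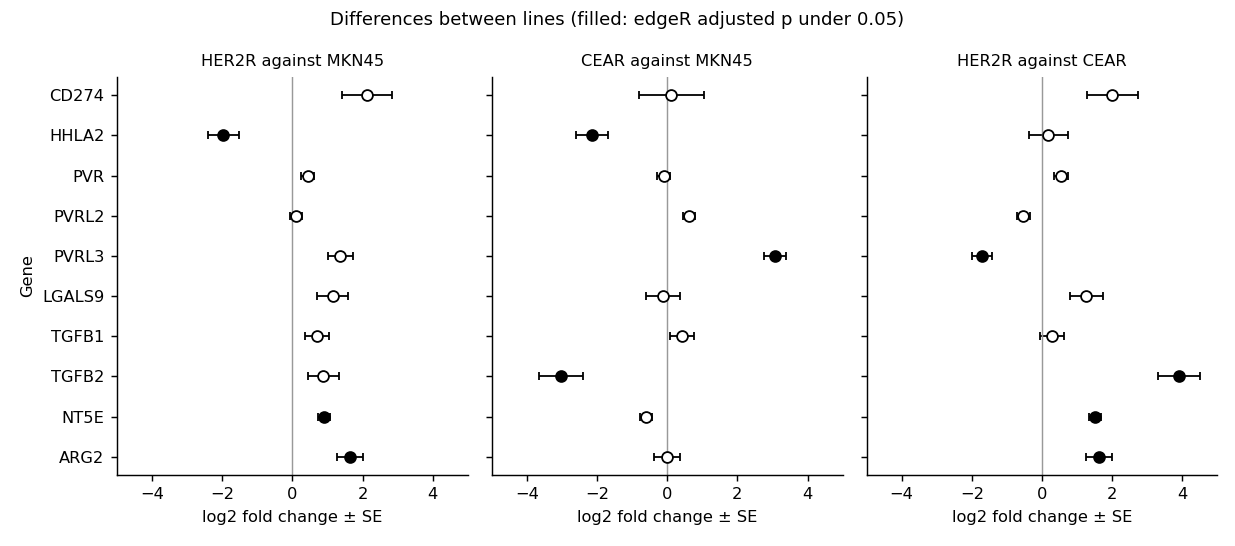
Log2 fold change with its SE for each of the 10 genes in the 3 comparisons, where filled points have an edgeR adjusted p under 0.05. PVRL3 and TGFB2 sit farthest from 0 in CEAR against MKN45, at 3.07 and -3.03, and 7 genes are not called in each comparison with MKN45.

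CD274 (chr9:5450503-5470566 on GRCh38, GENCODE 29) was barely transcribed in any line. It had 7 and 8 counts in the MKN45 libraries, 14 and 38 in HER2R, with 8 and 6 in CEAR. This gave 0.124 and 0.182 CPM for MKN45, 0.357 and 0.969 CPM for HER2R, and 0.193 and 0.135 CPM for CEAR. Both HER2R libraries lay above the other 4, which overlapped, and HER2R library 2 was well above library 1. Over its summed 52 counts the HER2R level was 0.663 CPM with an exact 95% Poisson interval of 0.495 to 0.869, and over 15 counts the MKN45 level was 0.149 CPM (0.0836 to 0.246). Both intervals cover counting error only. Both HER2R libraries lay outside the HER2R interval, so the gap between the intervals does not measure the spread between libraries. Against MKN45 the log2 fold change of HER2R was 2.13 (SE 0.703, edgeR adjusted p = 0.106), which did not pass the test. It was 1.24 without HER2R library 2, and 2.06 with the block (edgeR adjusted p = 0.0249), a call that supports nothing, since without the HER2R libraries the gene fell below the filter. HER2R against CEAR gave 2.01 (SE 0.717, edgeR adjusted p = 0.111, and 0.0273 with the block), and CEAR against MKN45 gave 0.12 (SE 0.929, edgeR adjusted p = 0.960). In a bulk culture, fewer cells holding a transcript and less of it in each cell cannot be told apart.

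The CD274 promoter is shown because its interferon elements are known as the route by which T cell cytokines induce PD-L1. Of the 10 genes, 9 were matched to a RefSeq promoter on GRCh38.p14, PVRL2 and PVRL3 under the names NECTIN2 and NECTIN3, and HHLA2 was not. The stretch before the start that lies outside annotated exons, chr9:5450292-5450502 on the plus strand, reads as below, 5′ to 3′, with motif matches in capitals.
CD274: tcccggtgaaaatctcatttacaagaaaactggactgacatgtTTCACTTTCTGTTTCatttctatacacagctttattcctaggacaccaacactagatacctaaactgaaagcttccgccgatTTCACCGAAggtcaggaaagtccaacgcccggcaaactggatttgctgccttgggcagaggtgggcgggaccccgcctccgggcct
The first run of capitals holds 2 overlapping matches to the reverse complement of GAAANNGAA, the core of the interferon-stimulated response element, at 207 and 201 bases before the start. The second is TTCNNNGAA, the gamma-activated site bound by STAT proteins, at 125 bases before it. Both strands were searched over 250 bases, in which 6.88% of 35116 promoters hold GAAANNGAA and 6.57% hold TTCNNNGAA. A match is only a match of letters and no evidence of binding here.

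The genes that set PD-L1 levels through interferon, NF-kappaB or protein stability were a list of 22, all tested, with a median log2 fold change of -0.23 in HER2R against MKN45 (-0.02 over all genes). In HER2R against MKN45, 0 of them rose and 2 fell, IFNGR2, a chain of the interferon gamma receptor, and CMTM4, a stabiliser of PD-L1 protein. IFNGR2 stood at 103 ± 17.6 CPM in MKN45 and 57.0 ± 9.46 in HER2R (log2 fold change -0.85, SE 0.186, edgeR adjusted p = 0.0404), and its call was lost without any 1 of the 6 libraries (0.0533 to 0.207). CMTM4 fell by 0.67 (SE 0.131, edgeR adjusted p = 0.0296) and was lost in the same way (0.0573 to 0.177). IFNGR2 was the 1 gene of the list called in CEAR against MKN45, at 44.0 ± 4.32 CPM (log2 fold change -1.22, SE 0.188, edgeR adjusted p = 0.0190), a call that ended without MKN45 library 1 (0.0686), CEAR library 1 (0.0670) or CEAR library 2 (0.0965). In HER2R against CEAR, 1 of the 22 was called higher and 3 lower, CMTM4 (-0.79), IFNGR1 (-0.70) and CMTM6 (-0.59), with RELA, an NF-kappaB subunit, as the higher one (0.55). All 4 calls were lost without any HER2R or CEAR library, and those of IFNGR1 and RELA without an MKN45 library too. The block called 5 of the list higher and 4 lower in HER2R against MKN45, 2 and 4 for CEAR against MKN45, and 6 and 5 between the resistant lines. Over all genes the block called 16.2% and 17.5%, 12.0% and 13.8%, and 19.7% and 18.6%. Without the block the shares were 4.89% and 4.85%, 2.57% and 3.62%, and 7.32% and 6.75%. Of the 5 tested genes on each side of CD274 on chromosome 9, the aminopeptidase gene ERMP1 was called lower in HER2R, by -0.81 against MKN45 (edgeR adjusted p = 0.0423) and -0.73 against CEAR (0.0467), and none was called in CEAR against MKN45.

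HHLA2 (chr3:108296490-108378285), a B7 family ligand with an inhibitory receptor, KIR3DL3, and a stimulatory one, TMIGD2, was lower in both resistant lines. MKN45 had 4.07 and 2.46 CPM, HER2R 0.841 and 0.842, and CEAR 0.482 and 0.989. Every library of a resistant line lay below both MKN45 libraries, and the resistant lines overlapped. HHLA2 fell by 1.97 on the log2 scale in HER2R (SE 0.447, edgeR adjusted p = 0.0441) and fell by 2.15 in CEAR (SE 0.449, edgeR adjusted p = 0.0440). That is 3.91-fold and 4.43-fold lower, on 66 and 64 summed counts against 338 in MKN45. The resistant lines differed by 0.18 (SE 0.546, edgeR adjusted p = 0.850).

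Both HHLA2 calls stood close to the threshold. The call in HER2R ended without MKN45 library 1 (edgeR adjusted p = 0.135), MKN45 library 2 (0.0657), HER2R library 1 (0.204) or HER2R library 2 (0.199). The call in CEAR ended with any 1 of the 6 libraries left out, at an edgeR adjusted p of 0.135 without MKN45 library 1, 0.0601 without MKN45 library 2, 0.0993 and 0.0981 without HER2R library 1 or 2, 0.178 without CEAR library 1 and 0.0992 without CEAR library 2. Both were also lost with no filter on low counts (0.0615 and 0.0643), with limma-voom (0.0586 and 0.0571) and with edgeR's legacy method (0.0599 and 0.0611), and the CEAR call with the 2 compared lines alone (0.0948).

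Other ligands of the B7 and checkpoint families showed no call. Of 19 listed, 14 were tested, with a median log2 fold change of 0.01 in HER2R against MKN45, and 0 were called in either direction in any of the 3 comparisons by edgeR, with 1 and 2 called higher and lower by the block fit in HER2R against MKN45, 3 and 3 for CEAR against MKN45, and 3 and 1 between the resistant lines. DESeq2 called 1 higher and 1 lower, 0 and 2, and 2 and 1 in the same order. Over all genes the block called 16.2% and 17.5%, 12.0% and 13.8%, and 19.7% and 18.6%. Without the block the shares were 4.89% and 4.85%, 2.57% and 3.62%, and 7.32% and 6.75%. PDCD1LG2, the second ligand of PD-1 and a neighbour of CD274, was at 0 counts in all 6 libraries.

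PVR (chr19:44643798-44663583), PVRL2 (chr19:44846175-44889228) and PVRL3 (chr3:111070071-111275563) encode CD155, nectin-2 and nectin-3, adhesion proteins of the nectin group. CD155 and nectin-2 bind the inhibitory receptor TIGIT and the activating receptor CD226, and nectin-3 is best known as a partner of other nectins at cell junctions. PVRL3 rose in CEAR. It stood at 0.567 and 0.500 CPM in MKN45, 1.48 and 1.30 in HER2R, with 4.79 and 4.29 in CEAR. The 3 lines formed 3 separate levels, with library pairs close together. CEAR was 8.42-fold above MKN45 (log2 fold change 3.07, SE 0.315, edgeR adjusted p = 0.00639). The call held in all 15 alternatives, from 2.99 to 3.18 with an adjusted p of at most 0.0396. HER2R against MKN45 gave 1.37 (SE 0.359, edgeR adjusted p = 0.0614), which did not pass, though it did with the block (0.0205) and with DESeq2 (0.0106). HER2R was 3.26-fold lower than CEAR (log2 fold change -1.71, SE 0.284, edgeR adjusted p = 0.0178), and this call ended without HER2R library 1 (0.102), HER2R library 2 (0.121), CEAR library 1 (0.0768) or CEAR library 2 (0.0721). The antisense gene PVRL3-AS1 had 0 counts in every library.

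The promoter of PVRL3 is shown as that of the gene with the steadiest call. GENCODE 29 begins the gene further upstream than RefSeq, and the stretch outside its exons is chr3:111071566-111071742, plus strand.
PVRL3: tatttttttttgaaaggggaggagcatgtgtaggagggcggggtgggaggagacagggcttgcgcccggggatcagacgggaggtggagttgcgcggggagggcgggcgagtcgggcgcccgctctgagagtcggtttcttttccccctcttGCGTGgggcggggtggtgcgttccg
In capitals is GCGTG, a core of hypoxia response elements, at 98 bases before the RefSeq start. It is common, being found in 32.2% of promoters. No match was found there for the interferon motifs, for TGANTCA (AP-1), GGGANTTTC (NF-kappaB) or GTCTAGAC (SMAD), which 6.57%, 1.12% and 0.182% of promoters hold.

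No difference of PVR was called. It stood at 112 and 80.2 CPM in MKN45, 136 and 123 in HER2R, with 98.3 and 80.5 in CEAR. Both HER2R libraries lay above all the others, while MKN45 and CEAR overlapped. The comparison nearest to the threshold was HER2R against CEAR (log2 fold change 0.54, SE 0.196, edgeR adjusted p = 0.117). The block called HER2R higher than MKN45 (0.45, edgeR adjusted p = 0.0160) and than CEAR (0.54, 0.00633).

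PVRL2 was not called either. It stood at 46.0 and 46.9 CPM in MKN45, 44.9 and 54.5 in HER2R, with 62.3 and 81.2 in CEAR. Both CEAR libraries lay above the other 4, and HER2R overlapped MKN45. CEAR against MKN45 gave a log2 fold change of 0.63 (SE 0.176, edgeR adjusted p = 0.0907) and HER2R against CEAR one of -0.53 (SE 0.176, edgeR adjusted p = 0.0935). Neither was called by edgeR alone, and both were with the block (0.00676 and 0.00922). DESeq2 called the first (adjusted p = 0.0290).

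Per kilobase of exon, PVRL3 was a small part of the trio. Its share of the summed PVR, PVRL2 and PVRL3 level per length was 0.207% and 0.229% in the MKN45 libraries, 0.469% and 0.424% in HER2R, with 1.71% and 1.53% in CEAR. PVR held 50.6% to 76.0% and PVRL2 23.5% to 47.9% over the 6 libraries. Of 4 other tested nectin and nectin-like genes, 0 rose (4.89% of all tested genes) and 1 fell (4.85%) in HER2R. It was PVRL1, the gene of nectin-1, a binding partner of nectin-3, at 352 ± 80.4 CPM in MKN45, 145 ± 39.4 in HER2R and 284 ± 27.6 in CEAR (HER2R against MKN45 -1.28, SE 0.244, edgeR adjusted p = 0.0271). The PVRL1 call ended without MKN45 library 2 (0.0932), HER2R library 1 (0.147) or HER2R library 2 (0.0745). PVRL1 was also lower in HER2R than in CEAR (-0.97, SE 0.242, edgeR adjusted p = 0.0460), a call lost without any HER2R or CEAR library (0.0947 to 0.188), and in CEAR against MKN45 none of the 4 was called.

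HHLA2 and PVRL3 are both on chromosome 3, where HHLA2 ends at base 108378285 and PVRL3 starts at base 111070071. Counting tested genes only, each is among the 5 nearest on a side of the other. Their changes in CEAR were opposite. In a look at the nearest tested genes of all 10 members that was chosen after values were seen, 5 of 87 neighbours were called in HER2R against MKN45 (5.75%), 2 in CEAR against MKN45 (2.3%) and 10 in HER2R against CEAR (11.5%), with the 10 genes themselves left out of these counts. Of all tested genes, 4.89% were called higher and 4.85% lower in the first comparison. The shares were 2.57% and 3.62% in the second, and 7.32% and 6.75% in the third. PHLDB2, downstream of PVRL3 and named after its values were seen, was higher in both resistant lines, by 3.67 in HER2R (edgeR adjusted p = 0.000830) and 2.58 in CEAR (0.00241). ZBED2, which lies between PVRL3 and PHLDB2, was also named after its values were seen. It was called higher in HER2R (4.55, edgeR adjusted p = 0.0127) but not called in CEAR (-3.53, 0.411). Its counts are not given here. Whether ZBED2 passed the filter only through HER2R is not shown, so its call is not read as a result. No neighbour of NT5E, ARG2 or TGFB2 was called in any comparison.

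LGALS9 (chr17:27629798-27649560) encodes galectin-9, a sugar-binding protein reported as a ligand of the inhibitory receptor TIM-3. It stood at 1.58 and 1.07 CPM in MKN45, 2.14 and 3.77 in HER2R, with 0.843 and 1.60 in CEAR. Both HER2R libraries were above the other 4, which overlapped. The log2 fold change was 1.14 in HER2R against MKN45 (SE 0.449, edgeR adjusted p = 0.156), 1.27 in HER2R against CEAR (SE 0.463, edgeR adjusted p = 0.117) and -0.13 in CEAR against MKN45 (SE 0.492, edgeR adjusted p = 0.917). Only HER2R against CEAR passed with the block (0.0333). Its near-identical copies LGALS9B and LGALS9C held 0 and at most 7 counts in a library, and reads shared among the 3 could have been assigned to any of them.

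TGFB1 (chr19:41301587-41353911) and TGFB2 (chr1:218346235-218444619) encode latent TGF-beta cytokines. TGFB2 fell in CEAR. It stood at 3.08 and 1.66 CPM in MKN45, 3.82 and 5.05 in HER2R, with 0.482 and 0.112 in CEAR, the last from 20 and 5 counts. The CEAR libraries lay below all others and the HER2R libraries above all others. TGFB2 was 8.17-fold lower in CEAR than in MKN45 (log2 fold change -3.03, SE 0.629, edgeR adjusted p = 0.0433) and 15.1-fold higher in HER2R than in CEAR (3.91, SE 0.603, edgeR adjusted p = 0.0146). HER2R against MKN45 gave 0.88 (SE 0.433, edgeR adjusted p = 0.237).

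The summed TGFB2 level in CEAR was 0.291 CPM with an exact 95% Poisson interval of 0.188 to 0.429 for counting error only, and both CEAR libraries lay outside it. Against MKN45 the call ended with any library left out. The edgeR adjusted p was 0.129 without MKN45 library 1, 0.0596 without MKN45 library 2, 0.0925 and 0.0912 without HER2R library 1 or 2, 0.0781 without CEAR library 1 (log2 fold change -4.39) and 0.171 without CEAR library 2 (-2.31). It also ended with no filter (0.0626), limma-voom (0.0611), the legacy method (0.0585) and the fit of the 2 compared lines alone (0.0911). HER2R against CEAR lost its call without HER2R library 1 (0.0702), HER2R library 2 (0.0934) or CEAR library 2 (0.0653, 3.19), and without CEAR library 1 it was 5.26.

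The TGFB2 promoter, chr1:218345086-218345335 on the plus strand before the RefSeq start, which lies upstream of the GENCODE 29 gene, is shown with its hypoxia-type cores in capitals.
TGFB2: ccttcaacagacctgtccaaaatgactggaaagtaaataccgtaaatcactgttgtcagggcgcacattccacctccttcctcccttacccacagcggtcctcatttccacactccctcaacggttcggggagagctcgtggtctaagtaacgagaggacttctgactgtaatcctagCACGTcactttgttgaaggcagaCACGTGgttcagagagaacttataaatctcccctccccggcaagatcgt
ACGTG, or its reverse complement CACGT, occurs at 72 bases and, as the 2 strands of CACGTG, at 49 and 48 bases before the start. ACGTG is held by 18.5% of promoters. No SMAD palindrome GTCTAGAC was found in this window.

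TGFB1 had no call, at 49.1 and 53.7 CPM in MKN45, 65.2 and 103 in HER2R, with 47.3 and 91.2 in CEAR. Both HER2R libraries exceeded MKN45, but CEAR overlapped both other lines, with 1 library below MKN45 and 1 far above it. HER2R against MKN45 gave a log2 fold change of 0.71 (SE 0.339, edgeR adjusted p = 0.228) and CEAR against MKN45 0.43 (SE 0.339, edgeR adjusted p = 0.511). The block called the first (0.66, edgeR adjusted p = 0.0209). CCDC97, HNRNPUL1 and TMEM91 overlap TGFB1 on the opposite strand, and whether the counting used strand is not stated.

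Of 18 tested genes that store, release and receive TGF-beta, 6 rose and 0 fell in HER2R against MKN45, where 4.89% of all tested genes rose and 4.85% fell. The median log2 fold change was 0.24 over the list (-0.02 over all genes). THBS1, whose product thrombospondin can release latent TGF-beta, rose from 10.8 ± 6.20 to 105 ± 43.1 CPM (3.27, SE 0.525, edgeR adjusted p = 0.0180). LTBP2, of the latent TGF-beta binding protein family, rose from 1.72 ± 0.429 to 8.17 ± 0.191 CPM (2.26, SE 0.282, edgeR adjusted p = 0.00860). LTBP1, a carrier that holds latent TGF-beta in the matrix, rose from 13.9 ± 0.860 to 50.4 ± 10.3 CPM (1.86, SE 0.190, edgeR adjusted p = 0.00491), and it is named here after its values were seen, as the 1 gene of the 6 that kept its call without each of the 6 libraries. THBS1 lost its call without MKN45 library 2 (0.0593), HER2R library 1 (0.0950) or HER2R library 2 (0.0584), and LTBP2 without HER2R library 1 (0.0661) or 2 (0.0633). With 1 library left out in turn, fewer of the 6 kept their calls each time. The log2 fold change then ran from 2.78 to 4.03 for THBS1, 2.02 to 2.52 for LTBP2 and 1.63 to 2.06 for LTBP1. The summed fibroblast markers were also highest in HER2R, as given above, with COL3A1, DCN, PDGFRA, THY1 and FAP at 0 counts. Of these 9 markers, 8 stayed under 1 CPM in every library. The 1 tested marker was not called by edgeR, while the block called it higher in HER2R than in either other line. The part of these markers in the differences was not tested.

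For CEAR against MKN45, 1 of the 18 rose and 0 fell. It was NRROS, a holder of latent TGF-beta on cells, from 0.778 ± 0.103 to 2.90 ± 0.258 CPM (1.88, SE 0.309, edgeR adjusted p = 0.0223), a call lost without any 1 library (0.0648 to 0.104). NRROS was also among the genes called higher in HER2R against MKN45 (1.62, SE 0.317, edgeR adjusted p = 0.029), a call likewise lost without any 1 library. The block called 8 of the list higher and 0 lower in HER2R, with 6 and 2 in CEAR. Over all genes the block called 16.2% and 17.5% in HER2R, with 12.0% and 13.8% in CEAR. Without the block the shares were 4.89% and 4.85%, 2.57% and 3.62%, and 7.32% and 6.75% for HER2R against CEAR. Tested directly, HER2R was above CEAR for 4 genes and below for 1, with LTBP1 (1.56, SE 0.188, edgeR adjusted p = 0.00816) and LTBP2 (1.03, SE 0.262, edgeR adjusted p = 0.0483) at the top, LTBP3 (0.89) and ITGB5 (0.64) as the others, and ITGAV, an integrin chain that binds latent TGF-beta, lower (-0.50, edgeR adjusted p = 0.0485). LTBP1 lost that call without HER2R library 1 (0.0574), and LTBP2 and ITGAV lost theirs without any 1 library (0.0515 to 0.199 and 0.0679 to 0.224). LTBP3 lost its call without MKN45 library 1 (0.0516), HER2R library 1 (0.157), HER2R library 2 (0.159) or CEAR library 1 (0.133), and ITGB5 without any HER2R or CEAR library (0.0945 to 0.171). The count of 4 became 1 with no filter, 2 without MKN45 library 1, 3 without MKN45 library 2, 0 and 1 without HER2R library 1 or 2, and 1 and 2 without CEAR library 1 or 2.

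SMAD genes and TGF-beta response genes moved in both directions. Of 15 tested, 3 rose and 2 fell in HER2R against MKN45, with a median log2 fold change of 0.41. BAMBI, a decoy receptor that TGF-beta induces, rose from 3.75 ± 0.0959 to 13.7 ± 0.678 CPM (1.87, SE 0.248, edgeR adjusted p = 0.0105), and LTBP2 (2.26) and SMAD3 (0.67), a transducer of the signal, were the other genes that rose. CTGF, a matrix protein induced by TGF-beta and by YAP, fell from 8.61 ± 4.23 to 0.778 ± 0.307 CPM (-3.47, SE 0.656, edgeR adjusted p = 0.0267), and SMAD6, an inhibitory SMAD, fell by 0.87 (SE 0.205, edgeR adjusted p = 0.0473). Without a HER2R library, none of the 15 was called. BAMBI was also lost without MKN45 library 1 or 2 (0.0525 and 0.0535), CTGF without MKN45 library 1 (0.0792), and SMAD3 and SMAD6 without any 1 library (0.0518 to 0.158 and 0.0589 to 0.224). For CEAR against MKN45 SMAD3 alone was called (0.84, SE 0.133, edgeR adjusted p = 0.0197), a call lost without any 1 library (0.0551 to 0.104). HER2R against CEAR had 3 called higher and 0 lower, led by BAMBI (2.21, SE 0.256, edgeR adjusted p = 0.00742) and PMEPA1, a feedback inhibitor of TGF-beta signalling (1.72, SE 0.264, edgeR adjusted p = 0.0144), with LTBP2 as the third. BAMBI lost that call without HER2R library 1 (0.0545) or 2 (0.0665), and PMEPA1 without HER2R library 1 (0.0724), HER2R library 2 (0.0938) or CEAR library 2 (0.0604). The block called 8 higher and 2 lower of the 15 in HER2R against MKN45, 3 and 2 for CEAR against MKN45, and 5 and 2 between the resistant lines. Over all genes the block called 16.2% and 17.5%, 12.0% and 13.8%, and 19.7% and 18.6%. Without the block the shares were 4.89% and 4.85%, 2.57% and 3.62%, and 7.32% and 6.75%.

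NT5E (chr6:85449584-85495791) encodes CD73, the surface enzyme that turns AMP into adenosine, which dampens T cells. It stood at 65.7 and 62.0 CPM in MKN45, 106 and 132 in HER2R, with 47.0 and 37.0 in CEAR. The 3 lines did not overlap, with HER2R highest and CEAR lowest. HER2R was 1.86-fold above MKN45 (log2 fold change 0.90, SE 0.174, edgeR adjusted p = 0.0283) and 2.83-fold above CEAR (1.503, SE 0.176, edgeR adjusted p = 0.00751). CEAR against MKN45 gave -0.61 (SE 0.174, edgeR adjusted p = 0.0965), called with the block (0.0200) and with DESeq2 (0.0402). The call against MKN45 ended without MKN45 library 1 (edgeR adjusted p = 0.0887), MKN45 library 2 (0.117), HER2R library 1 (0.0906) or HER2R library 2 (0.155). The one against CEAR ended without HER2R library 2 (0.0625). The 250 bases before the RefSeq start of NT5E, chr6:85449833-85450082, held none of the 7 motifs searched. That window lies wholly within annotated exons of the gene, downstream of the gene start at base 85449584. The stretch upstream of base 85449584 was not searched, so nothing is said of motifs there.

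The rest of the adenosine pathway had no call. Of 14 other tested genes for making, breaking down, moving and sensing adenosine, 0 rose and 0 fell by edgeR in each of the 3 comparisons, and their median log2 fold change in HER2R against MKN45 was -0.53. The block called 2 higher and 5 lower, 1 and 2, and 3 and 3 when the comparisons are taken in the order above, and DESeq2 0 and 2, 0 and 0, and 0 and 2. Over all genes the block called 16.2% and 17.5%, 12.0% and 13.8%, and 19.7% and 18.6%. Without the block the shares were 4.89% and 4.85%, 2.57% and 3.62%, and 7.32% and 6.75%. ENTPD1, the gene of CD39, which makes the AMP that CD73 uses, was untested, at 0.0746 ± 0.0553 CPM in the parent, 0.127 ± 0.0722 CPM in HER2R and 0.0907 ± 0.0942 CPM in CEAR.

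ARG2 (chr14:67619798-67651720) encodes the mitochondrial arginase, which splits arginine into ornithine and urea. It stood at 10.3 and 5.05 CPM in MKN45, 26.3 and 21.7 in HER2R, with 9.30 and 6.16 in CEAR. Both HER2R libraries were above the other 4, and CEAR lay within the MKN45 range. HER2R was 3.11-fold above each of the other lines, with log2 fold changes of 1.64 against MKN45 (SE 0.369, edgeR adjusted p = 0.0428) and 1.63 against CEAR (SE 0.371, edgeR adjusted p = 0.0358). CEAR against MKN45 gave 0.003 (SE 0.374, edgeR adjusted p = 0.999). The call against MKN45 ended without MKN45 library 2 (0.109), HER2R library 1 (0.193) or HER2R library 2 (0.145) and with no filter (0.0626). The call against CEAR ended without HER2R library 1 (0.159), HER2R library 2 (0.130), CEAR library 1 (0.0765) or CEAR library 2 (0.145) and with no filter (0.0519). The liver-type gene ARG1 had 0 counts in all 6 libraries. VTI1B, which overlaps ARG2 on the opposite strand, stood at 44.3 to 57.5 CPM.

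The ARG2 promoter outside its exons is chr14:67619670-67619797, plus strand.
ARG2: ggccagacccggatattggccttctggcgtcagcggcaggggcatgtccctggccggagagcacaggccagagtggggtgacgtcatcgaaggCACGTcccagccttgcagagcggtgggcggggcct
In capitals is CACGT, the reverse complement of ACGTG, at position -157 from the RefSeq start.

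Other genes of arginine, tryptophan and polyamine use were a list of 11 tested genes. In HER2R against MKN45, 1 rose and 3 fell, with a median log2 fold change of 0.38 over the list. ODC1, which takes ornithine into polyamines, rose from 165 ± 21.5 to 299 ± 60.5 CPM (0.86, SE 0.198, edgeR adjusted p = 0.0449). ASL, which makes arginine from argininosuccinate, fell from 236 ± 67.6 to 85.1 ± 0.323 CPM (-1.47, SE 0.299, edgeR adjusted p = 0.0328), and the arginine importer SLC7A1 fell from 208 ± 62.3 to 109 ± 5.05 CPM (-0.93, SE 0.212, edgeR adjusted p = 0.0447). The ODC1 call was lost without any 1 library (0.0557 to 0.204). The ASL call was lost without MKN45 library 2 (0.107), HER2R library 1 (0.170) or HER2R library 2 (0.161), and that of SLC7A1 with any library but MKN45 library 2 left out (0.0615 to 0.212). The third to fall was NOS3, the endothelial nitric oxide synthase gene (-0.82, SE 0.146, edgeR adjusted p = 0.0240), a call lost without any MKN45 or HER2R library (0.0617 to 0.146). For CEAR against MKN45, 0 of 11 were called by edgeR, 1 by DESeq2, and 1 higher and 2 lower with the block. In HER2R against MKN45 the block called 5 higher and 3 lower. Over all genes the block called 16.2% and 17.5% in HER2R against MKN45, with 12.0% and 13.8% for CEAR against MKN45. Without the block these shares were 4.89% and 4.85%, with 2.57% and 3.62%. Between the resistant lines 1 was called higher in HER2R, KMO of the kynurenine route, with 12 and 21 counts in HER2R and 0 in both CEAR libraries. It passed the filter only through HER2R, so that call is not read as a result.

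Of 10 tested secreted or prostaglandin-making factors that recruit or polarise suppressive cells, 3 rose and 0 fell in HER2R against MKN45, with a median log2 fold change of 0.95 over the list. CSF1, a growth factor of macrophages, rose from 0.288 ± 0.107 to 1.70 ± 0.488 CPM (2.58, SE 0.476, edgeR adjusted p = 0.0257). PTGS2, the enzyme of prostaglandin E synthesis known as COX-2, rose from 36.4 ± 5.49 to 211 ± 24.9 CPM (2.53, SE 0.376, edgeR adjusted p = 0.0141). The third was GDF15 (1.31), a stress-induced cytokine. The CSF1 and PTGS2 calls ended without any MKN45 or HER2R library, at 0.0752 to 0.145 for CSF1 and 0.0532 to 0.0878 for PTGS2, GDF15 lost its call without MKN45 library 2 (0.0684) or HER2R library 2 (0.0781), and the count of 3 became 0 without MKN45 library 2 or HER2R library 2 and 1 without MKN45 library 1 or HER2R library 1. Against CEAR, 5 of the 10 were higher in HER2R and 0 lower, with LIF (1.87), PTGS2 (1.86) and GDF15 (1.46) behind the neutrophil attractants CXCL1 (8.15 ± 4.10 against 0.773 ± 0.235 CPM, 3.40, SE 0.480, edgeR adjusted p = 0.0122) and IL8 (8.26 ± 3.50 against 1.76 ± 1.09 CPM, 2.24, SE 0.539, edgeR adjusted p = 0.0417). CXCL1 lost that call without HER2R library 2 (0.0625) or CEAR library 2 (0.0629), and IL8 without any HER2R or CEAR library (0.0590 to 0.200). LIF and PTGS2 lost theirs without HER2R library 1 (0.0647 and 0.102) or 2 (0.0722 and 0.127), GDF15 without HER2R library 2 (0.0665), CEAR library 1 (0.0539) or CEAR library 2 (0.0550), and the count of 5 became 2 or 0 with HER2R library 1 or 2 left out and 3 or 2 with CEAR library 1 or 2 left out. In CEAR against MKN45, 0 rose and 1 fell, the cytokine gene LIF (-1.28, SE 0.237, edgeR adjusted p = 0.0314), a call lost without MKN45 library 1 (0.106), HER2R library 1 (0.0816), HER2R library 2 (0.0795) or CEAR library 2 (0.116). The block called 6 higher and 0 lower in HER2R against MKN45, 0 and 3 for CEAR against MKN45, and 8 and 0 between the resistant lines. Over all genes the block called 16.2% and 17.5%, 12.0% and 13.8%, and 19.7% and 18.6%. Without the block the shares were 4.89% and 4.85%, 2.57% and 3.62%, and 7.32% and 6.75%.

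**Figure D3:**
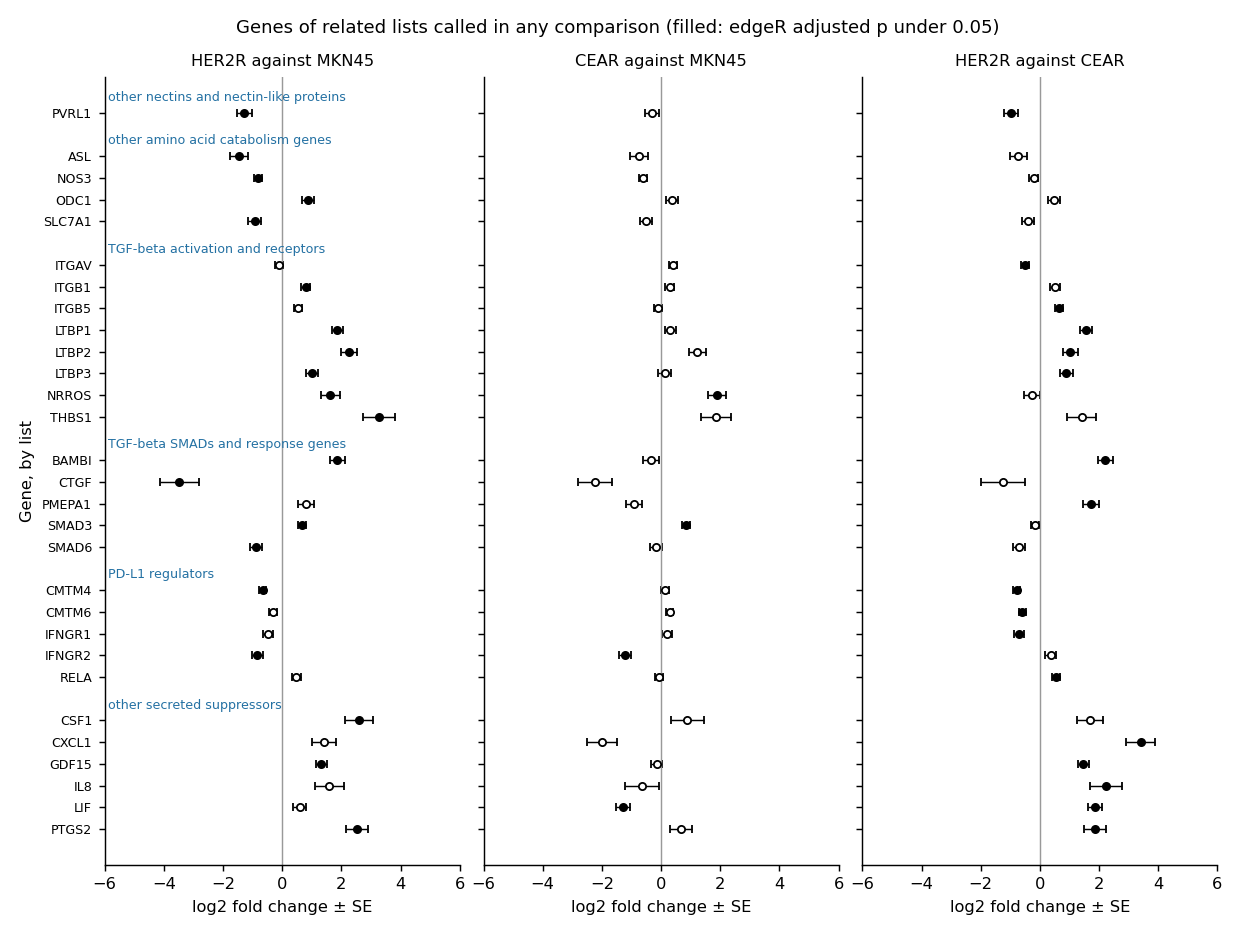
Log2 fold change with its SE in the 3 comparisons for genes of 6 related lists that were called in at least 1 comparison and reached a mean of 1 CPM in a line, where filled points have an edgeR adjusted p under 0.05 and a gene on 2 lists is drawn once. In HER2R against MKN45 the latent TGF-beta genes and the secreted factors that were called lie to the right of 0, and CTGF lies farthest to the left, at -3.47.

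Levels can be compared between genes only per length, here as CPM per kilobase of the union of a gene's exons in GENCODE 29. In MKN45 the order was PVR (27.3), TGFB1 (15.9), NT5E (14.1), PVRL2 (12.4), ARG2 (3.16), HHLA2 (0.900), TGFB2 (0.460), LGALS9 (0.231), PVRL3 (0.0863) and CD274 (0.0372). No neighbours in that order overlapped in their 2 libraries. In HER2R the order began PVR (36.8), NT5E (26.2) and TGFB1 (25.9), the ranges of the last pair, 23.4 to 29.1 and 20.1 to 31.7, overlapping. PVRL2 (13.3), ARG2 (9.91), TGFB2 (0.861) and LGALS9 (0.518) followed, and then HHLA2 (0.232), PVRL3 (0.225) and CD274 (0.161), whose ranges overlapped. In CEAR it began PVR (25.4), TGFB1 (21.4), PVRL2 (19.1) and NT5E (9.26), and the first 3 overlapped through TGFB1, whose libraries were 14.6 and 28.2. ARG2 (3.20) and PVRL3 (0.735) came next, LGALS9 (0.213) overlapped HHLA2 (0.203), and TGFB2 (0.0577) overlapped CD274 (0.0399). Among 13897 tested genes with a length, PVR stood at percentile 88.5 in MKN45, 92.1 in HER2R and 87.9 in CEAR, and CD274 at 2.1, 7.6 and 3.1. PVRL3 stood at 4.8, 9.4 and 19.6, TGFB2 at 15.2, 20.7 and 4.1, and HHLA2 at 21.4, 9.7 and 9.9.

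**Figure D4:**
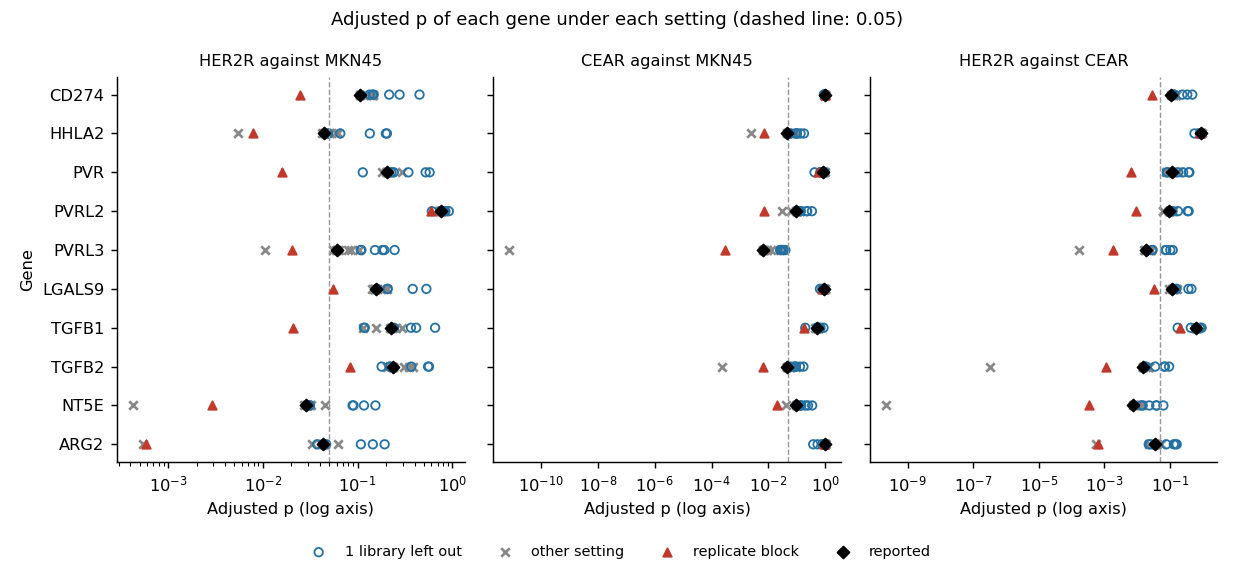
Adjusted p of each of the 10 genes under each setting, on a log axis, with the reported value as a black diamond, the fit with the replicate block as a red triangle, fits with 1 library left out as open circles and other settings as crosses. In CEAR against MKN45 every setting leaves PVRL3 to the left of the dashed line at 0.05, and the calls of HHLA2 and TGFB2 lie on both sides of it.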

How the data were processed

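Counts per gene symbol were deposited by the authors, as whole numbers in all 6 libraries. Per the labels' protocols, RNA was isolated by column and sequenced as stranded total RNA after depletion of ribosomal RNA. Per the submitters' processing notes, the build was GRCh38 and limma was used, with no role or version. Not given in the sources used here are the aligner, the counting program, its strand setting and the annotation.

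Samples were grouped by the labels' descriptions. Low counts were removed with edgeR's filterByExpr by line, which kept 14958 of 29744 symbols. Lines were the terms of a quasi-likelihood model (edgeR 4.0.16, R 4.3.3, TMM scaling, 3 residual and 3.51 prior degrees of freedom) that gave the 3 contrasts, with Benjamini-Hochberg adjustment over all tested genes. CPM used tested-gene totals scaled by TMM. Library pairs were not copies, since chi-square per degree of freedom was 60.7 to 128. The method was tested on simulated data.

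The 10 genes and all lists were chosen with earlier results of these data known. Named were all members, per list, comparison and direction the 2 called genes with the largest log2 fold change at a mean of 1 CPM or more in a line, called receptors, cell markers and CD274 neighbours, and promoters of called members and of CD274, and genes outside this rule were named after their values were seen. Promoters and their starts are RefSeq's, positions and lengths GENCODE 29's.

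The pairing of library numbers comes from the data, since the labels do not say what a number means: number 2 minus number 1 differences correlated between lines at 0.468, 0.65 and 0.495 over the tested genes. Alternatives were the replicate block, RLE factors, unscaled library size, a filter at 1 CPM in 2 libraries, no filter, DESeq2 1.42.0, limma-voom (limma 3.58.1), the compared lines alone, each library left out and, chosen after seeing the data, edgeR's legacy method.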

Additional observations from a re-analysis of the deposited data

Results flagged for a closer look

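For 4 of the 10 genes the difference from MKN45 was not the same in the 2 resistant lines, tested as HER2R against CEAR in the edgeR model over 6 libraries. TGFB2 was 3.91 log2 units higher in HER2R than in CEAR, ARG2 1.63 higher and NT5E 1.503 higher, while PVRL3 was lower (-1.71). In each of the 4, both HER2R libraries lay on one side of both CEAR libraries, as for 31.0% of all tested genes above and 30.3% below. In this comparison 7.32% of all tested genes were called higher and 6.75% lower. The 4 were picked as called on the same libraries, so their lack of overlap adds no support. Each lost its call without at least 1 library, as given with its values above.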

How the results depend on the processing

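Over the 10 genes and 3 comparisons, 446 alternative values were computed, of which 372 kept direction and side of the threshold, 48 lost a call, 13 gained one and 13 changed sign. With 1 library left out in turn, the genes called ran from 189 to 1136 in HER2R against MKN45, 253 to 428 in CEAR against MKN45 and 103 to 1856 in HER2R against CEAR. The members called then ran from 0 to 3, stayed at 1, and ran from 0 to 4. In the same order, the replicate block gave 5040, 3861 and 5717 genes and 7, 5 and 8 members, and DESeq2 2813, 2066 and 3391 genes. DESeq2 called 5 members in CEAR against MKN45. No filter left 1 member in HER2R against MKN45 and 1 in CEAR against MKN45, and limma-voom, the legacy method and the compared lines alone also left 1 in CEAR against MKN45, the last with 405 genes. The cause of these moves was not tested. Changes of sign came with a library left out and in uncalled values: PVRL2 in HER2R against MKN45 (-0.0493 to 0.23); CD274 (-0.15 to 0.38), ARG2 (-0.41 to 0.62), TGFB1 (-0.12 to 0.83), PVR (-0.33 to 0.16) and LGALS9 (-0.66 to 0.25) in CEAR against MKN45; and TGFB1 (-0.13 to 0.82) and HHLA2 (-0.24 to 0.80) in HER2R against CEAR. Library size alone moved the share of calls that were higher from 41.6% to 51.9% in CEAR against MKN45 and from 52.0% to 41.8% in HER2R against CEAR. The lone library of a line is then taken to vary as the other lines do. Counts were lowest for CD274, at 6 to 38 a library, and for TGFB2 in CEAR, at 5 and 20.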
